A study of Homo sapiens with 9 samples.

Results

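The genes of antigen presentation through MHC class I were examined in messenger RNA from OVCAR5, a human cell line derived from ovarian cancer. The 9 genes were a set of symbols chosen with earlier results of these data known. Their symbols were matched by Ensembl identifier, without its version, to a table of 60649 gene identifiers. The 9 genes are NLRC5, HLA-B, HLA-C, HLA-E, HLA-F, HLA-G, B2M, TAP1 and TAP2, and all 9 were among the 19674 genes with enough counts to be tested. The study asked how METTL3, the enzyme that writes N6-methyladenosine on RNA, relates to platinum resistance, and these 9 libraries come from stable lines made by lentiviral transduction and puromycin selection. There were 3 libraries labelled NC, given as the control, and 3 each labelled SM2 and SM4, both described as METTL3 knockdown. The labels call NC parental cells, whereas the methods describe a control hairpin, and no label says which of the study's hairpins SM2 or SM4 carries. All 9 libraries carry the cell line label OVCAR5, while a separate source label gives other OVCAR numbers for the libraries labelled SM4. Nothing in the labels says that the 3 libraries of a group came from separate cultures, so the p-values measure the spread between these libraries, which may be technical.

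The targeted gene went against the labels. METTL3 was at 36.3, 34.4 and 36.6 CPM (counts scaled to a common library size) in the NC libraries, at 37.1, 39.8 and 40.02 in SM2, and at 60.6, 57.5 and 62.4 in SM4. Its log2 fold change was 0.12 ± 0.05 (SE) in SM2 against NC (adjusted p = 0.12) and 0.75 ± 0.05 in SM4 against NC, a 1.68-fold rise. METTL3 messenger RNA was thus lowest in the libraries labelled as the control and highest in those labelled SM4, described as a knockdown. The labels and the level of METTL3 do not give the groups the same roles. The labels and counts alone do not settle which of them is right. In the paper's list of changed genes, METTL3 is lower with both hairpins than with the control hairpin. Here METTL3 was lower in NC and SM2 than in SM4, and in neither SM2 nor SM4 was it lower than in NC. The groups are therefore called by their labels, NC serves only as the group that SM2 and SM4 are compared with, and no direction below is a direction of METTL3 loss. Totals ran from 44103272 to 63693728 counts, so that 1 CPM stood for 43.8 to 63.2 counts. SM2 replicate 3 stood apart: the chi-square per degree of freedom was 13.4 and 16.1 in the 2 pairs that held it and 4.16 to 6.01 in the other 7 pairs of replicates. Epithelial markers were abundant, with a summed level of 11400 to 13320 CPM over 8 genes, and KRT8, KRT18 and EPCAM were high in every library.

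MHC class I molecules show fragments of intracellular proteins to cytotoxic T cells. Proteasomes cut the proteins, the TAP1 and TAP2 transporter moves peptides into the endoplasmic reticulum, and loading factors place them on a heavy chain bound to beta-2-microglobulin, the product of B2M. NLRC5 is a transcriptional coactivator of class I genes, and interferons raise most of this machinery, including the immunoproteasome subunits that replace the constitutive catalytic ones. HLA-B and HLA-C are classical heavy chains, while HLA-E, HLA-F and HLA-G are non-classical ones that also serve as ligands for receptors of natural killer cells.

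The heavy chain genes are close in sequence, so the stretch upstream of their starts is shown beside that of B2M and TAP1, where the elements that bind interferon regulatory factors, NF-kappa B and CRE-binding or NF-Y proteins are known to lie. The 130 bases from 190 to 61 bases before the RefSeq start (GRCh38.p14) are given 5′ to 3′ on the strand of the gene. Capitals mark matches on either strand to AANNGAAA, GGGNNTTCC, TGACG or CCAAT, including any match that is cut by an end of the stretch. The stretches are chr6:31357240-31357369 (minus strand) for HLA-B, chr6:31272153-31272282 (minus) for HLA-C, chr6:29723244-29723373 (plus) for HLA-F, chr6:29827635-29827764 (plus) for HLA-G, chr15:44711327-44711456 (plus) for B2M and chr6:32853765-32853894 (minus) for TAP1.
HLA-B: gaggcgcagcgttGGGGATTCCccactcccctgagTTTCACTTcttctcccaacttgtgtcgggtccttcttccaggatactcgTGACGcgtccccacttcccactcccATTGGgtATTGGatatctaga
HLA-C: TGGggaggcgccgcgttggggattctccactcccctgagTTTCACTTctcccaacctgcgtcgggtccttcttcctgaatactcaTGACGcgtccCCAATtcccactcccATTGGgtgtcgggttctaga
HLA-F: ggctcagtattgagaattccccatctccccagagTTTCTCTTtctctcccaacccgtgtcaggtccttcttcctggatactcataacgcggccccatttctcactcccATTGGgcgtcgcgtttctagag
HLA-G: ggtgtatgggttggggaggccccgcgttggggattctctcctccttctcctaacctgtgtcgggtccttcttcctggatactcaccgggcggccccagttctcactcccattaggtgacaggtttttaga
B2M: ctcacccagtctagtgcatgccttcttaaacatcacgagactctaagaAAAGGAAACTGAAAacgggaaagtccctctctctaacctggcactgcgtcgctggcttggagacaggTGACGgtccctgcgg
TAP1: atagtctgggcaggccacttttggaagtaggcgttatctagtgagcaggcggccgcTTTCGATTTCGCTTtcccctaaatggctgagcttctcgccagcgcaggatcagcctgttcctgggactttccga
The HLA-B and HLA-C stretches were identical at 85.8% of aligned positions, HLA-B and HLA-F at 78.8%, and HLA-B and HLA-G at 70.5%.

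An interferon regulatory factor core, AANNGAAA, was found within 250 bases before the start of HLA-B, HLA-C, HLA-F, B2M, TAP1 and TAP2, as it was in 20.3% of the 35116 RefSeq promoters of the same length. For TAP1 this holds for the start shown above, and its other listed start had no such match. HLA-G had no such match at any of its 3 listed starts. The match lay 155 to 148 bases before the start in HLA-B, 151 to 144 in HLA-C and 156 to 149 in HLA-F. B2M and TAP1 each held a pair of overlapping matches, and so did TAP2, from 62 to 49 bases before its start. The kappa B-like motif GGGNNTTCC was matched in HLA-B alone among the listed members, against 5.78% of all promoters, and 0.951% of all promoters held both of these motifs. This fixed pattern leaves out sites with a longer spacing, such as gggactttcc in the TAP1 stretch and its reverse complement in that of B2M. The absence of a match is therefore not the absence of a kappa B site. TGACG, the core of a cyclic AMP response element, was matched in HLA-B, HLA-C, TAP2 and B2M and in 21.2% of promoters, and the CCAAT box in 32.01%. NLRC5 and HLA-E were not among the listed promoters. A match describes letters only, since no binding was measured here.

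In the GENCODE annotation (GRCh38), 7 of the 9 genes lie in the MHC on chromosome 6. HLA-F spans 29722775 to 29738528, HLA-G 29826967 to 29831125, HLA-E 30489509 to 30494194, HLA-C 31268749 to 31272130, HLA-B 31353872 to 31367067, TAP2 32821833 to 32838739 and TAP1 32845209 to 32853816. B2M lies on chromosome 15 from 44711358 to 44718851, and NLRC5 on chromosome 16 from 56989485 to 57083531. The counts cover whole genes, exons and untranslated regions together. TAP1 overlaps PSMB9 and PSMB8-AS1 on the other strand, and whether the counting used strand is not stated, so reads in the overlaps may belong to either gene. PSMB9 was at 47.4 to 73.3 CPM and PSMB8-AS1 at 1.77 to 3.81 CPM.

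How far the heavy chains could exchange reads was measured on the reference transcripts. The coding sequences of HLA-B and HLA-C were 91.5% identical, and the other pairs of heavy chains lay between 65.7% and 85.6%. Of the 50-base windows of the canonical transcript, those found unchanged in another gene made up 2.56% in HLA-B, 6.77% in HLA-C, 6.16% in HLA-E, 1.89% in HLA-F and 5.28% in HLA-G. B2M and NLRC5 had no such window, and TAP1 had 1.18%. For TAP2 the share was 35.3%, and the gene that overlaps it on the same strand (ENSG00000250264) had 0 counts in every library. With windows of 150 bases no heavy chain shared any, while TAP2 still shared 34.1%. The labels name paired reads of the longer kind and the methods name single reads of the shorter kind, and how reads with several matches were treated is not stated. The alleles of the cell line differ from the reference in unknown places, and their part in the levels was not tested.

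Measured per kilobase of merged exons, B2M was the most abundant of the 9 genes in the NC libraries, at 310.2 ± 1.38 CPM per kb (SD, n = 3). HLA-C followed at 232 ± 8.76, then HLA-E at 71.0 ± 1.96 and HLA-B at 65.0 ± 0.65. TAP1 stood at 15.1 ± 0.956, TAP2 at 8.11 ± 0.147, HLA-F at 3.70 ± 0.132, HLA-G at 2.15 ± 0.403 and NLRC5 at 0.649 ± 0.0761. Neighbours in this order were separated by more than their SDs, but the order of HLA-E and HLA-B turned when the canonical transcript length was used in place of merged exons, since the annotated exons of HLA-B cover 4623 bases and its canonical transcript 1536. In SM2 and SM4, HLA-B was above HLA-E on the merged length too, at 97.8 and 90.0 CPM per kb against 89.7 and 88.0, and the gap was within the SD of HLA-B in both, 9.32 and 3.64.

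Most of the 9 genes were higher in the libraries labelled SM2 and SM4 than in those labelled NC. In SM2 against NC, 6 of the 9 were called higher and 1 lower, where 12.0% of all tested genes were called higher and 10.3% lower. In SM4 against NC, 7 of 9 were called higher and none lower, where 11.0% and 10.2% of all tested genes were called. NLRC5, HLA-B, HLA-C, HLA-E, HLA-F and B2M were called higher in both comparisons, which share the NC libraries. The median log2 fold change of the 9 genes was 0.34 in SM2 and 0.33 in SM4, beside -0.0037 and -0.0011 over all tested genes. Since the set was chosen with earlier results of these data known, these counts and medians are a description and not independent evidence. Bulk libraries cannot tell a change in the number of cells that express a gene from a change in its RNA per cell.

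**Figure D1:**
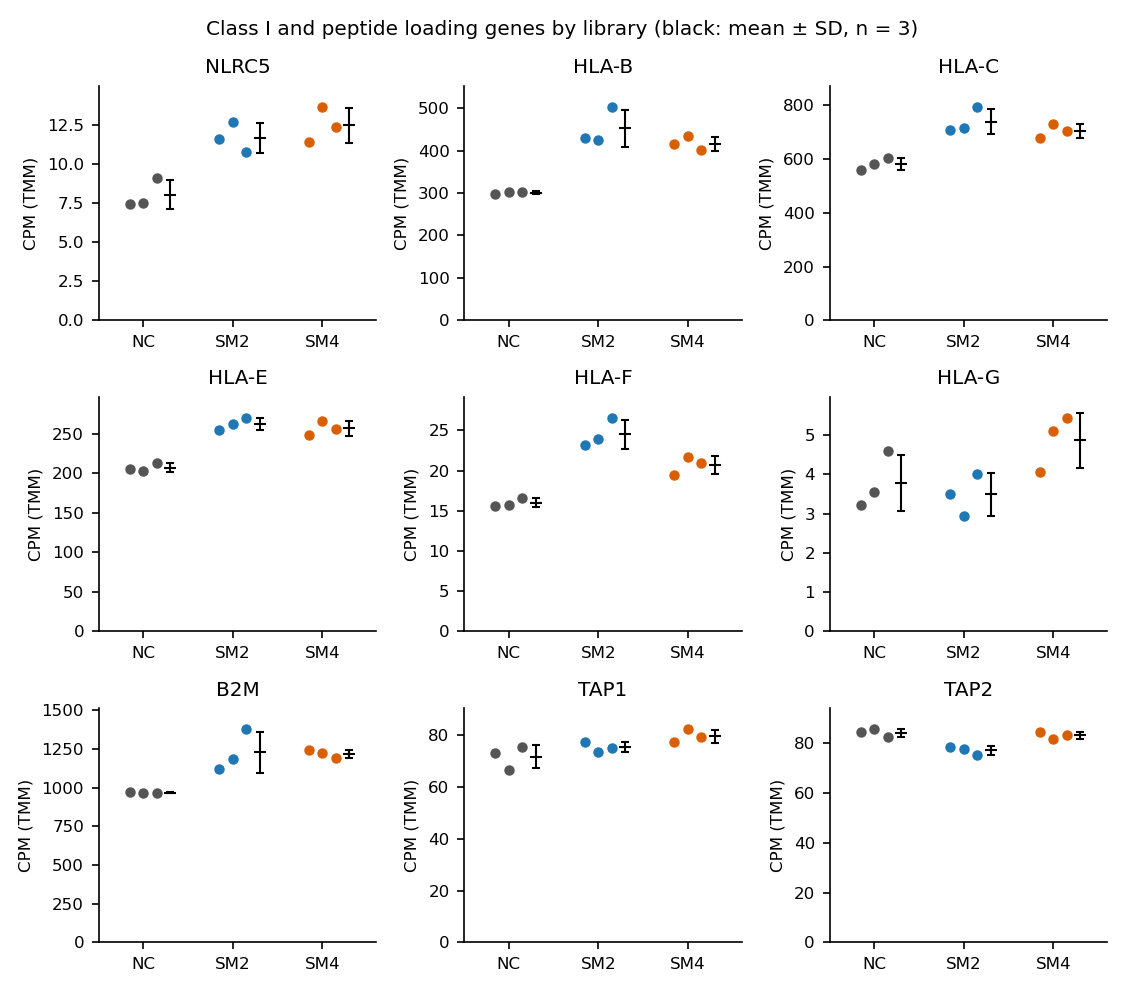
Level of each of the 9 genes in every library, in TMM-normalized CPM on linear axes that start at 0, with 3 points per group and the mean ± SD in black. The SM2 and SM4 points lie above all NC points for NLRC5, HLA-B, HLA-C, HLA-E, HLA-F and B2M, whereas for HLA-G both overlap NC.

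NLRC5, the class I coactivator, was a low transcript. It was at 7.46, 7.52 and 9.12 CPM in NC, at 11.6, 12.7 and 10.8 in SM2, and at 11.4, 13.6 and 12.4 in SM4. All 6 of the latter libraries were above the highest NC library, and SM2 and SM4 overlapped. The log2 fold change was 0.53 ± 0.10 (SE) in SM2 against NC (adjusted p = 0.000508), a 1.45-fold rise, and 0.63 ± 0.10 in SM4 against NC (adjusted p = 7.84e-05), a 1.55-fold rise. Between SM4 and SM2 it differed by 0.10 ± 0.10, which was not called (adjusted p = 0.599).

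HLA-B, a classical heavy chain, presents peptides to cytotoxic T cells. Its levels were 297, 302 and 302 CPM in NC, 431, 424 and 502 in SM2, and 414, 434 and 400.4 in SM4. The lowest SM2 or SM4 library was well above the highest NC library, and SM2 replicate 3 was the highest of all 9. The log2 fold change was 0.59 ± 0.05 in SM2 (adjusted p = 7.75e-08), or 1.51-fold, and 0.47 ± 0.05 in SM4 (adjusted p = 1.36e-06), or 1.39-fold. SM4 against SM2 gave -0.12 ± 0.05, not called after adjustment (adjusted p = 0.158).

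HLA-C, the other classical heavy chain and the most abundant of the 5 heavy chains examined, rose by less. It was at 561, 582 and 605 CPM in NC, at 710.2, 717 and 793 in SM2, and at 678, 733 and 704 in SM4. Again every SM2 and SM4 library lay above every NC library. The rise was 0.35 ± 0.05 on the log2 scale in SM2 (adjusted p = 1.5e-05) and 0.27 ± 0.05 in SM4 (adjusted p = 0.000185), that is 1.27-fold and 1.21-fold.

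Among the non-classical heavy chains, HLA-E presents leader peptides of other class I chains. Its levels were 206, 203 and 214 CPM in NC, 254, 262 and 269.9 in SM2, and 248, 267 and 256 in SM4. No SM2 or SM4 library came down to the NC range. HLA-E rose by 0.34 ± 0.04 on the log2 scale in SM2 (adjusted p = 6.57e-06) and by 0.31 ± 0.04 in SM4 (adjusted p = 1.74e-05).

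HLA-F, a non-classical chain of low abundance here, was at 15.6, 15.7 and 16.6 CPM in NC, at 23.1, 23.9 and 26.5 in SM2, and at 19.4, 21.6 and 20.95 in SM4. The 3 groups formed 3 separate ranges, with SM4 between NC and SM2. The log2 fold change was 0.62 ± 0.07 in SM2 against NC (adjusted p = 2.04e-06) and 0.37 ± 0.07 in SM4 against NC (adjusted p = 0.000641). The difference between them was itself called, at -0.25 ± 0.07 in SM4 against SM2 (adjusted p = 0.0224). That last call was lost without SM2 replicate 3, SM4 replicate 1 or SM4 replicate 3, with log2 fold changes of -0.26 to -0.19 and adjusted p of 0.0585 to 0.148. The antisense gene HLA-F-AS1, which overlaps it on the other strand, was at 0.569 to 1.27 CPM.

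HLA-G, known for its expression on trophoblast, was the least abundant heavy chain, with 141 to 322 counts per library. It is among the genes that the study itself names as METTL3 targets, partly from these libraries, so its values here are not independent evidence. Its levels were 3.22, 3.55 and 4.58 CPM in NC, 3.50, 2.93 and 4.02 in SM2, and 4.06, 5.095 and 5.42 in SM4. SM2 overlapped the NC range, SM4 replicate 1 was below NC replicate 3, and all SM4 libraries were above all SM2 libraries. Neither comparison with NC was called: the log2 fold change was -0.12 ± 0.16 in SM2 (adjusted p = 0.654) and 0.35 ± 0.15 in SM4 (adjusted p = 0.117). Without NC replicate 3 the value in SM2 turned to 0.04 and that in SM4 was 0.52 and called (adjusted p = 0.0359). SM4 against SM2 gave 0.48 ± 0.16, just inside the threshold (adjusted p = 0.0496). This call was lost without NC replicate 2, SM2 replicate 1 or 2, or SM4 replicate 2 or 3, with values of 0.37 to 0.48 and adjusted p of 0.0618 to 0.194, and with upper-quartile normalization (0.0519) or only the 6 libraries compared (0.0509).

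Because reads of near-identical genes may be exchanged, the 5 heavy chains were also added up. Their summed level was 1083, 1106 and 1142 CPM in NC, 1422, 1430.2 and 1596 in SM2, and 1364, 1460.3 and 1387 in SM4. The group means were 1110.4 ± 30.1, 1483 ± 97.9 and 1404 ± 50.3 CPM (SD, n = 3), so that the sum was 1.33-fold higher in SM2 and 1.26-fold higher in SM4, and 1.28-fold higher in SM2 without its replicate 3. HLA-C made up 51.8% to 53.0% of the sum in NC and 49.7% to 50.75% in the other 6 libraries. The share of HLA-B ran the other way, from 26.5% to 27.5% in NC and from 28.9% to 31.5% in SM2 and SM4. HLA-F and HLA-G together accounted for little, with mean shares in NC of 1.44% and 0.34%.

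B2M encodes the light chain shared by all class I molecules. It was at 972, 963 and 969 CPM in NC, at 1123, 1184 and 1378 in SM2, and at 1242, 1223 and 1194 in SM4. The NC libraries lay within a narrow range below all other libraries, and SM2 replicate 3 was again the highest. B2M rose by 0.34 ± 0.05 on the log2 scale in SM2 (adjusted p = 6.89e-05) and by 0.33 ± 0.05 in SM4 (adjusted p = 9.02e-05), 1.27-fold and 1.26-fold. SM4 against SM2 gave -0.01 ± 0.05 (adjusted p = 0.938). The ratio of the summed heavy chains to B2M, by counts within a library, was 1.15 ± 0.0325 in NC, 1.21 ± 0.0544 in SM2 and 1.15 ± 0.0491 in SM4, and the 3 ranges overlapped.

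The transporter genes had fold changes closer to 0. TAP1 was at 73.2, 66.6 and 75.3 CPM in NC, at 77.5, 73.6 and 75.1 in SM2, and at 77.3, 82.2 and 79.3 in SM4. SM2 overlapped NC, and the SM4 libraries were above them by a small margin. The log2 fold change was 0.07 ± 0.05 in SM2 (adjusted p = 0.365) and 0.15 ± 0.05 in SM4 (adjusted p = 0.0406), a 1.11-fold rise. That call was lost without NC replicate 1 or 2, SM2 replicate 2 or any one of the SM4 libraries, with values of 0.098 to 0.17 and adjusted p of 0.0526 to 0.276.

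TAP2, the partner of TAP1 in the transporter, was at 84.2, 85.4 and 82.4 CPM in NC, at 78.5, 77.3 and 75.0 in SM2, and at 84.5, 81.5 and 83.0 in SM4. The SM2 libraries were all below the NC libraries, whereas SM4 overlapped them. It fell by 0.13 ± 0.04 on the log2 scale in SM2 (adjusted p = 0.045) and differed by -0.02 ± 0.04 in SM4 (adjusted p = 0.835). The SM2 call was lost when any 1 library other than SM2 replicate 1 was left out, with values of -0.14 to -0.11 and adjusted p of 0.0627 to 0.157, and under 3 other settings at the same threshold. By counts, the ratio of TAP1 to TAP2 was 0.869, 0.780 and 0.914 in NC, 0.987, 0.952 and 1.001 in SM2, and 0.9155, 1.009 and 0.956 in SM4, so that all 6 SM2 and SM4 libraries were above the NC libraries, SM4 replicate 1 by little.

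**Figure D2:**
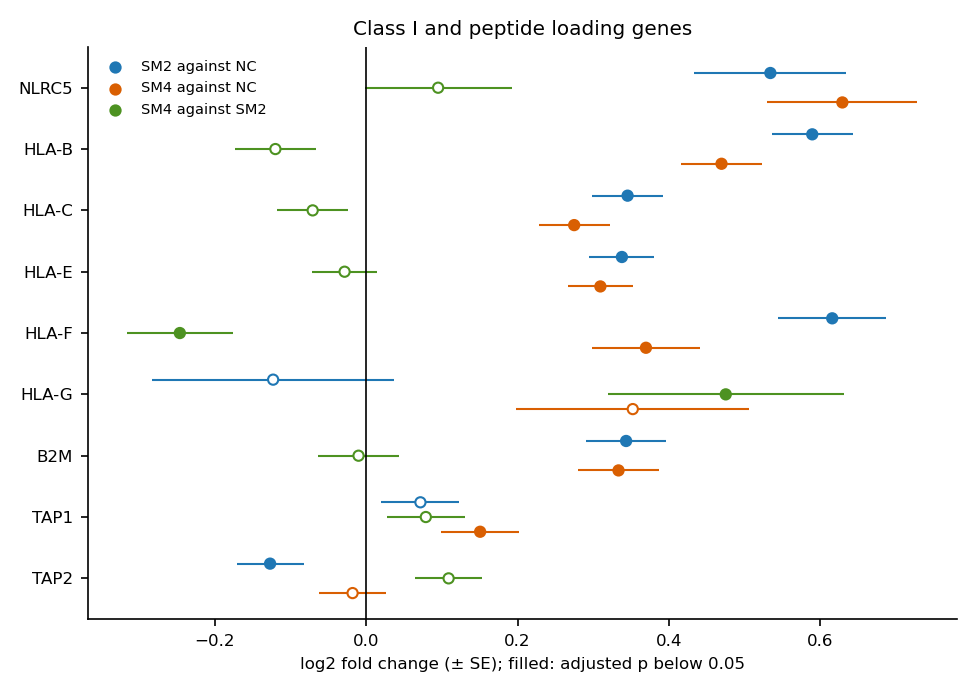
Log2 fold change of each of the 9 genes for the 3 comparisons, SM2 with NC, SM4 with NC and SM4 with SM2, with bars of 1 SE and filled points where the adjusted p is below 0.05. NLRC5, HLA-B and HLA-F have the largest values against NC, TAP1 and TAP2 lie near 0, and HLA-F and HLA-G are the filled points of SM4 against SM2.

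Of the 9 genes, 1 was called higher and 1 lower in SM4 against SM2 (HLA-G and HLA-F), where 6.04% of all tested genes were called higher and 6.76% lower. For the remaining 7 the log2 differences between SM4 and SM2 lay between -0.12 and 0.11, and a value that missed the threshold does not show equal levels. Across the 9 libraries, which fall into the 3 groups, log2 CPM of HLA-B followed that of HLA-C with a Pearson r of 0.98 (n = 9), HLA-E with 0.97, HLA-F with 0.96 and B2M with 0.96. With HLA-B, the r was 0.56 for TAP1, 0.16 for HLA-G and -0.73 for TAP2.

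Beside these members, 15 other genes of class I processing and loading were described from a list. In each comparison with NC, 6 of the 15 were called higher, and 3 were called lower in SM2 and 5 in SM4. Among all tested genes, 12.0% were called higher and 10.3% lower in SM2, and 11.0% and 10.2% in SM4. The median log2 fold change over the 15 was 0.0084 in SM2 and 0.021 in SM4, so the list as a whole did not lean one way. Its proteasome genes split by role, while the factors of the endoplasmic reticulum were called in both directions.

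The immunoproteasome subunits PSMB8, PSMB9 and PSMB10, which replace the constitutive catalytic subunits after interferon exposure, were called higher in both comparisons. PSMB8 was at 83.4, 86.3 and 85.3 CPM in NC, at 101, 99.96 and 118 in SM2, and at 107, 113 and 107 in SM4. PSMB9 was at 48.0, 47.4 and 51.4 CPM in NC, at 63.5, 68.9 and 73.3 in SM2, and at 67.3, 71.6 and 66.5 in SM4. For all 3 subunits the SM2 and SM4 libraries were above every NC library. The log2 fold changes in SM2 and SM4 were 0.32 ± 0.06 and 0.36 ± 0.06 for PSMB8, 0.49 ± 0.06 and 0.48 ± 0.06 for PSMB9, and 0.57 ± 0.06 and 0.52 ± 0.06 for PSMB10, with adjusted p between 1.38e-06 and 0.000208. PSMB9 shares bases with TAP1 on the other strand.

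The constitutive counterparts went the other way or did not pass the test. PSMB5, replaced by PSMB8, fell by 0.13 ± 0.04 on the log2 scale in SM2 (adjusted p = 0.0431) and by 0.17 ± 0.04 in SM4 (adjusted p = 0.00783). PSMB7, replaced by PSMB10, fell by 0.15 ± 0.04 (adjusted p = 0.0157) and 0.13 ± 0.04 (adjusted p = 0.0377). PSMB6, replaced by PSMB9, gave -0.14 ± 0.06 and 0.02 ± 0.06, neither called. These falls were small: the SM2 call of PSMB5 was lost when any 1 library other than SM2 replicate 3 was left out (values of -0.15 to -0.098, adjusted p of 0.0537 to 0.209) and in 3 other settings, upper-quartile normalization, no filter and only the 6 libraries compared (adjusted p of 0.0679, 0.0781 and 0.0824), and its SM4 call without NC replicate 2 or SM4 replicate 1 (adjusted p of 0.0516 and 0.055). For PSMB7 the SM2 call was lost without NC replicate 2 or SM2 replicate 2 (adjusted p of 0.0545 to 0.0794) and the SM4 call without any NC library, SM2 replicate 2 or SM4 replicate 1 or 3 (adjusted p of 0.0572 to 0.263), as well as with upper-quartile normalization (0.0651) or no filter (0.0822). PSMB6 was called lower in SM2 without NC replicate 1 or SM2 replicate 3, with values of -0.21 and -0.20.

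As ratios of counts within each library, the 3 exchangeable pairs separated SM2 and SM4 from NC. PSMB8 to PSMB5 was 0.435, 0.426 and 0.427 in NC, 0.562, 0.578 and 0.616 in SM2, and 0.617, 0.635 and 0.6045 in SM4. PSMB9 to PSMB6 had a mean of 0.404 ± 0.0285 in NC, 0.621 ± 0.0229 in SM2 and 0.555 ± 0.0058 in SM4 (SD, n = 3). PSMB10 to PSMB7 had means of 0.125 ± 0.00887, 0.206 ± 0.00294 and 0.196 ± 0.00459. In each pair all 6 SM2 and SM4 libraries were above all NC libraries, by 1.36 to 1.65 times in SM2 and 1.37 to 1.57 times in SM4 on the means. These are ratios of counts, not of molecules, since gene lengths differ, and they carry no test of their own. The ratios were added after the data were seen and restate the subunit levels given above, so they are no separate evidence.

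**Figure D3:**
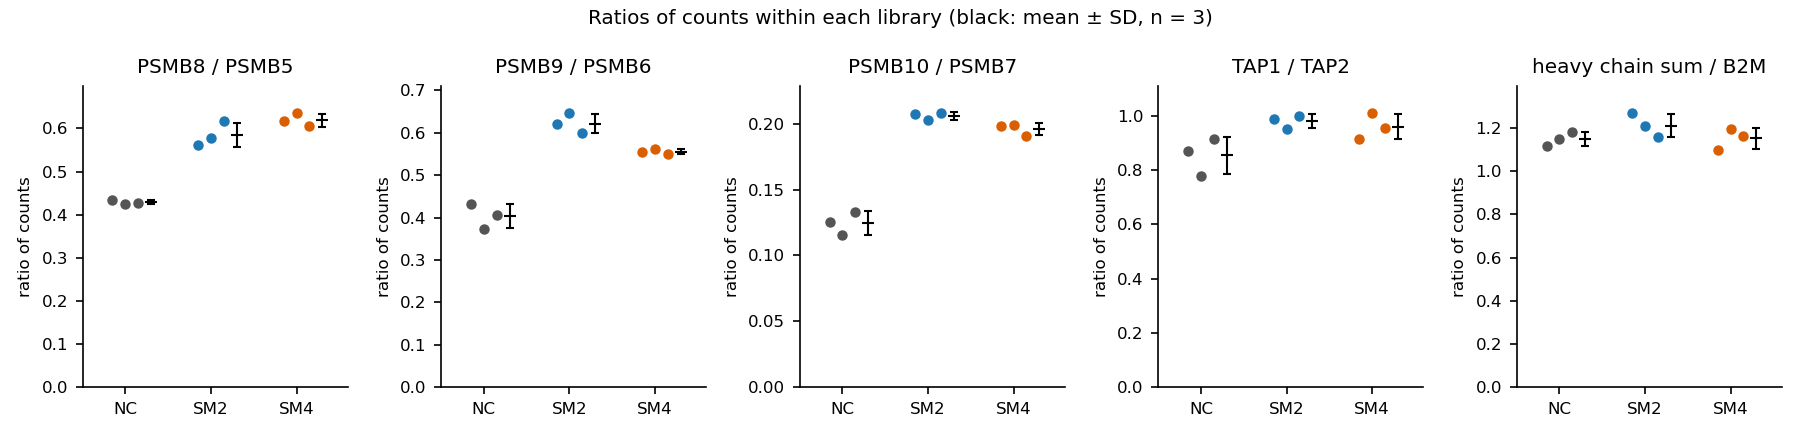
Ratio of counts within each library for the 3 pairs of immunoproteasome and constitutive subunits, for TAP1 to TAP2 and for the 5 summed heavy chains to B2M, on linear axes that start at 0, with the mean ± SD in black. The 3 proteasome ratios are higher in all SM2 and SM4 libraries than in any NC library, while the ratio of heavy chains to B2M overlaps between the groups.

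PSME1 and PSME2 encode the proteasome activator PA28, also known to respond to interferon gamma. PSME1 rose by 0.22 ± 0.05 on the log2 scale in SM2 (adjusted p = 0.00459) and by 0.23 ± 0.05 in SM4 (adjusted p = 0.00326). PSME2 rose by 0.16 ± 0.05 (adjusted p = 0.0151) and 0.23 ± 0.05 (adjusted p = 0.00102), and its SM2 call was lost without NC replicate 1 or 2 (values of 0.14 and 0.16, adjusted p of 0.0517 to 0.0976).

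In the endoplasmic reticulum, the tapasin gene TAPBP, whose product bridges the class I chain and the transporter, was the one gene called higher in both comparisons among the 7 factors there. It was at 192, 188 and 197 CPM in NC, at 284, 262 and 239.8 in SM2, and at 260.3, 268 and 266 in SM4, without overlap with NC. The rise was 0.45 ± 0.05 in SM2 (adjusted p = 1.74e-06) and 0.46 ± 0.05 in SM4 (adjusted p = 9.2e-07), 1.36-fold and 1.38-fold. The general chaperones were not called higher. CANX, the calnexin gene, fell by 0.19 ± 0.04 in SM2 (adjusted p = 0.00229) and by 0.21 ± 0.04 in SM4 (adjusted p = 0.000989). PDIA3, the disulfide isomerase of the loading complex, was called lower in SM4, at -0.20 ± 0.04 (adjusted p = 0.00063), with -0.09 ± 0.04 in SM2 (adjusted p = 0.101, and called at 0.0315 without SM2 replicate 3), while SM4 against SM2 was not called by edgeR (adjusted p = 0.0698) but was with DESeq2 (adjusted p = 0.0368). CALR, the calreticulin gene, gave 0.01 ± 0.04 and -0.05 ± 0.04, and TAPBPL, a tapasin-related peptide editor, 0.11 ± 0.09 and -0.07 ± 0.09, none of them called.

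ERAP1 and ERAP2 encode the enzymes that trim peptides in the endoplasmic reticulum. ERAP1 gave -0.12 ± 0.06 in SM2 (adjusted p = 0.148) and fell by 0.28 ± 0.06 in SM4 (adjusted p = 0.00105), with no call between SM4 and SM2 (adjusted p = 0.0717, but 0.00408 without SM2 replicate 3). ERAP2 was at 10.4, 8.33 and 11.7 CPM in NC, at 9.26, 10.4 and 9.85 in SM2, and at 13.6, 11.6 and 12.1 in SM4. SM4 was above SM2 in every library but overlapped NC. For ERAP2 the value in SM4 against NC was 0.30 ± 0.11, just outside the threshold (adjusted p = 0.0503), and it was called under 7 other settings and without NC replicate 3, SM2 replicate 1 or SM2 replicate 3 (adjusted p of 0.0121 to 0.0476). SM4 against SM2 gave 0.34 ± 0.11 (adjusted p = 0.037), lost without SM2 replicate 1, SM4 replicate 1 or SM4 replicate 3 (values of 0.27 to 0.36, adjusted p of 0.071 to 0.19).

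**Figure D4:**
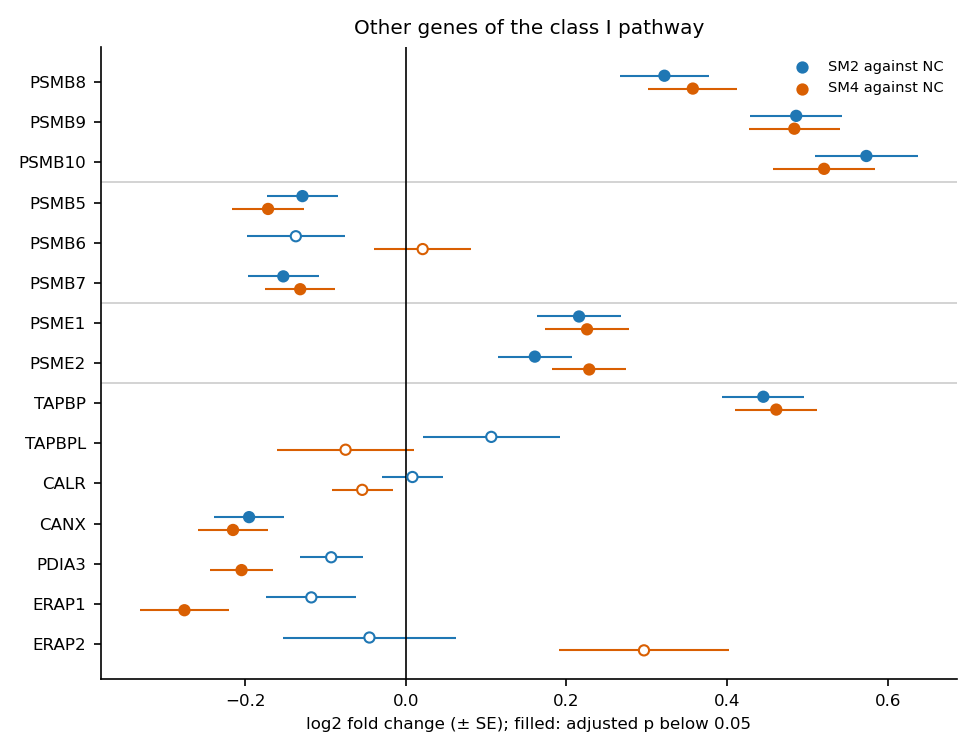
Log2 fold change of 15 other genes of class I processing and loading in SM2 against NC and SM4 against NC, with bars of 1 SE and filled points where the adjusted p is below 0.05. From top to bottom, divided by grey lines, are the immunoproteasome subunits, their constitutive counterparts, the proteasome activator and the factors of the endoplasmic reticulum, with TAPBP at 0.45 and 0.46.

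Class I genes are known targets of interferon signalling, so 22 genes of class I transcription and interferon signalling were counted from a list. In SM2 against NC 1 of the 22 was called higher and none lower, and in SM4 against NC 4 were called higher and 3 lower, with medians of 0.0096 and 0.015. Over all tested genes 12.0% were called higher and 10.3% lower in SM2, and 11.0% and 10.2% in SM4, so the counts in SM4 were near the background. Between SM4 and SM2, 3 of the 22 were called higher and 2 lower, where 6.04% and 6.76% of all tested genes were called. IRF1, an interferon-induced activator of class I promoters, was called higher in both comparisons with NC. It was at 48.7, 48.4 and 51.9 CPM in NC, at 59.1, 56.3 and 62.1 in SM2, and at 68.1, 62.6 and 64.4 in SM4, rising by 0.25 ± 0.05 on the log2 scale (adjusted p = 0.00154) and by 0.39 ± 0.05 (adjusted p = 1.5e-05).

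IRF7, a driver of type I interferon genes, was called higher in SM4 but not in SM2. Its levels of 38.9, 38.3 and 38.5 CPM in NC overlapped those of 37.7, 40.7 and 41.1 in SM2, while SM4 was at 56.6, 61.8 and 57.9. The difference between SM4 and SM2 was called, at 0.56 ± 0.05 (adjusted p = 3.04e-07). IRF9, part of the ISGF3 complex, gave -0.29 ± 0.19 in SM2 and 0.51 ± 0.18 in SM4 (adjusted p = 0.0419), and the latter call was lost without any 1 NC library, SM4 replicate 1 or SM4 replicate 3 (values of 0.39 to 0.57, adjusted p of 0.066 to 0.206); SM4 against SM2 was 0.80 ± 0.18 (adjusted p = 0.00427). STAT2, of the same complex, rose by 0.25 ± 0.06 in SM4 and gave -0.01 ± 0.06 in SM2, a value that turned positive, up to 0.03, when NC replicate 1, NC replicate 3 or SM2 replicate 1 was left out. The 3 genes called lower in SM4 were IFNGR1, a chain of the interferon gamma receptor, at -0.39 ± 0.05, RFX5, a subunit of the RFX complex on MHC promoters, at -0.16 ± 0.05, and NFKB1 at -0.16 ± 0.05. The RFX5 call was lost without NC replicate 2 or 3 or SM4 replicate 1 (values of -0.16 to -0.14, adjusted p of 0.0611 to 0.112). The NFKB1 call was lost without NC replicate 1 or 2, SM2 replicate 2 or any one of the SM4 libraries (values of -0.17 to -0.13, adjusted p of 0.0531 to 0.188), and with upper-quartile normalization (adjusted p = 0.0615). Between SM4 and SM2, STAT2 was called higher (0.26 ± 0.06), and IFNGR1 (-0.30 ± 0.05) and RFX5 (-0.26 ± 0.05) were called lower. IFNGR1, RFX5, NFKB1 and STAT2 were named after their values were seen.

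Other molecules of the class I fold did not share one direction: of 12 tested, 4 were called higher and 2 lower in SM2, and 4 and 4 in SM4, where 12.0% and 10.3% of all tested genes were called in SM2 and 11.0% and 10.2% in SM4. ULBP1, a ligand of the natural killer receptor NKG2D, was at 3.60, 3.42 and 3.19 CPM in NC, at 7.81, 6.86 and 6.75 in SM2, and at 6.81, 9.05 and 7.74 in SM4, a rise of 1.07 ± 0.12 and 1.21 ± 0.12 on the log2 scale. MR1, which presents vitamin metabolites to MAIT cells, rose by 0.84 ± 0.15 and 1.18 ± 0.14. FCGRT, the heavy chain of the neonatal Fc receptor and a partner of beta-2-microglobulin, rose by 0.61 ± 0.07 and 0.54 ± 0.07. All 3 were without overlap with NC, with adjusted p between 2.37e-07 and 0.00025. The fourth gene called higher was HFE, whose product takes part in iron sensing, at 0.28 ± 0.06 and 0.17 ± 0.06 (adjusted p of 0.00125 and 0.0449). Its SM4 call was lost without any one of the NC or SM4 libraries or SM2 replicate 2 (adjusted p of 0.055 to 0.268) and with no filter (0.0646).

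ULBP3, MICA and MICB encode ligands of NKG2D, as does ULBP1. ULBP3 was called lower in SM2, at -0.34 ± 0.08 (adjusted p = 0.0045), and gave -0.12 ± 0.08 in SM4. MICB was called lower in SM4, at -0.30 ± 0.06 (adjusted p = 0.000887), and so was MICA, at -0.19 ± 0.06 (adjusted p = 0.0205), with -0.12 ± 0.06 and -0.10 ± 0.06 in SM2. Leaving out NC replicate 2, NC replicate 3, SM4 replicate 1 or SM4 replicate 2 ended the MICA call (adjusted p of 0.0669 to 0.103). PROCR, the endothelial protein C receptor gene, fell by 0.56 ± 0.10 in SM2 (adjusted p = 0.00028) and by 0.28 ± 0.10 in SM4 (adjusted p = 0.0465). AZGP1, a soluble relative of the class I chain, was called lower in SM4 at -0.35 ± 0.11 (adjusted p = 0.0225). The PROCR call in SM4 was lost without any one of the NC libraries, SM2 replicate 2 or SM4 replicate 1 or 2 (adjusted p of 0.0527 to 0.208), with upper-quartile normalization (0.0687) and with no filter (0.0802). The AZGP1 call was lost on leaving out NC replicate 1, NC replicate 3, SM4 replicate 1 or SM4 replicate 2 (adjusted p of 0.0559 to 0.139), and AZGP1 was called lower in SM2 without SM2 replicate 3 (-0.30, adjusted p = 0.048). These 5 genes and HFE were named after their values were seen.

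Class I pseudogenes, which share sequence with the heavy chains, did not all follow them. Of 11 listed, 6 were tested, and in each comparison with NC 1 was called higher and 1 lower. The shares of all tested genes called higher and lower were 12.0% and 10.3% in SM2, and 11.0% and 10.2% in SM4. HLA-H was at 17.3, 19.7 and 20.7 CPM in NC, at 23.1, 23.7 and 25.5 in SM2, and at 20.8, 28.3 and 23.8 in SM4, rising by 0.32 ± 0.09 on the log2 scale (adjusted p = 0.0144) and by 0.34 ± 0.09 (adjusted p = 0.0112), and the calls were lost without NC replicate 1, and in SM4 also without SM4 replicate 2 (adjusted p of 0.0713 to 0.114). HLA-V fell by 0.26 ± 0.08 in SM2 (adjusted p = 0.0208) and by 0.42 ± 0.08 in SM4 (adjusted p = 0.000388), and its SM2 call was lost without NC replicate 1 or 2 or SM2 replicate 1 (values of -0.24 to -0.22, adjusted p of 0.0628 to 0.0951). How many reads the heavy chains and these pseudogenes exchange was not tested beyond the shared windows given above.

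MHC class II genes, which present peptides from outside the cell and are expressed in these cells, were set beside class I. Of 13 listed and tested, 12 were called higher in SM2 and 8 in SM4, and none lower. In SM4 against SM2, 8 were called lower and none higher. The median log2 fold changes in these 3 comparisons were 0.38, 0.22 and -0.19. Among all tested genes, 12.0% were called higher and 10.3% lower in SM2, and 11.0% and 10.2% in SM4. In SM4 against SM2 the shares were 6.04% higher and 6.76% lower. HLA-DQA1 was at 2.85, 3.38 and 3.02 CPM in NC, at 5.23, 5.87 and 5.87 in SM2, and at 5.16, 4.64 and 5.05 in SM4, with log2 fold changes of 0.87 ± 0.12 and 0.68 ± 0.12. HLA-DOA was at 9.92, 9.75 and 10.03 CPM in NC, at 21.1, 20.03 and 18.6 in SM2, and at 15.8, 15.9 and 15.3 in SM4, giving 1.01 ± 0.07 and 0.66 ± 0.07. HLA-DRB5, a class II beta chain whose reads can be shared with its near-identical relatives, rose by 0.55 ± 0.05 and 0.35 ± 0.05, and its lower level in SM4 than in SM2 (-0.19 ± 0.05, adjusted p = 0.0185) was not called without SM4 replicate 1 or 3 (adjusted p of 0.0606 to 0.104). CIITA, the class II coactivator related to NLRC5 and named after its value was seen, rose by 0.16 ± 0.06 in SM2 (adjusted p = 0.0465) and by 0.21 ± 0.06 in SM4 (adjusted p = 0.0118). Its SM2 call was lost without NC replicate 2 or 3, SM2 replicate 2 or any one of the SM4 libraries, and its SM4 call without NC replicate 2 or SM4 replicate 3 (adjusted p of 0.0586 to 0.275). With only the 6 libraries compared, the SM2 call was lost too (adjusted p = 0.0832).

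**Figure D5:**
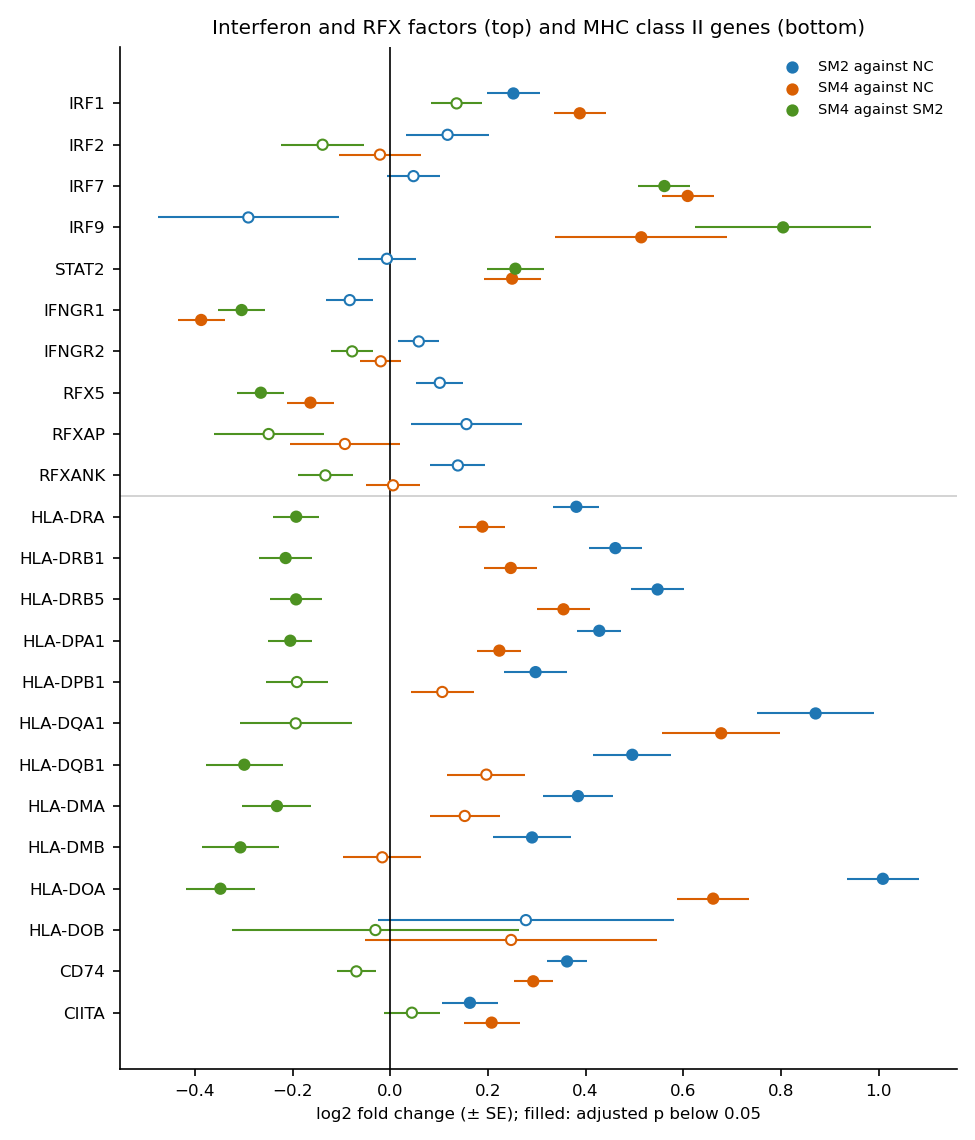
Log2 fold change, with bars of 1 SE and filled points where the adjusted p is below 0.05, for 10 of the 22 factors of interferon signalling and class I transcription (interferon regulatory factors, STAT2, the interferon gamma receptor and the RFX subunits) above the grey line and for the 13 MHC class II genes below it. IRF7, IRF9 and STAT2, higher in SM4, are filled for SM4 against NC and SM4 against SM2 but open for SM2 against NC. IFNGR1 and RFX5 have the same filled and open points but are lower in SM4. For SM2 against NC, 12 class II genes are filled.

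Leukocytes express both classes of MHC strongly, so their markers were measured in the same libraries. The summed level of 8 leukocyte markers was 5.54 to 6.85 CPM in NC, 8.61 to 9.49 in SM2 and 10.3 to 11.2 in SM4, and 7 of the 8 were below 1 CPM in every library. CD3D and MS4A1 were at 0 in all 9 libraries, and PTPRC, the pan-leukocyte gene CD45, did not exceed 0.0755 CPM. The remaining marker, CD14, rose by 0.55 ± 0.10 on the log2 scale in SM2 and 0.83 ± 0.09 in SM4. Of 9 stromal and endothelial markers, 7 were below 1 CPM throughout, with a summed level of 27.1 to 30.8 CPM in NC, 31.0 to 36.2 in SM2 and 35.3 to 40.03 in SM4, and PECAM1 rose by 0.59 ± 0.10 and 1.32 ± 0.10. The part of CD14 and PECAM1 in the class I values was not tested. The epithelial markers were called in both directions: CDH1, the E-cadherin gene, fell by 0.25 ± 0.05 and 0.36 ± 0.05, while KRT19 rose by 0.19 ± 0.04 and 0.30 ± 0.04 and MUC1 by 0.34 ± 0.05 and 0.22 ± 0.05.

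The genes whose log2 CPM was most like that of 3 members over the 9 libraries were NEURL1B (Pearson r = 0.983), ERBB2 (0.981) and U2AF2 (0.975) for NLRC5, SIM2 (0.974), WDR45BP1 (0.94) and SLC7A7 (0.937) for TAP1, and FN3K (0.991), TSPAN3 (0.990) and FAM171A2 (0.985) for HLA-B. All points share the 3 groups, so genes that differ between the groups in the same way rank high.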

How the data were processed

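Messenger RNA was measured in 9 libraries in 3 groups of 3, grouped by their titles. The authors deposited raw counts per gene, as whole numbers without scaling. Reads were aligned to hg38 with HISAT2 (the submitters' processing notes also name fastp and featureCounts) and counted with Subread, and versions, annotation and strand setting are not given in the sources used here. The labels name a stranded kit with paired reads and the methods another kit with single reads. No column was left unused (0).

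In R 4.3.3, genes were filtered with filterByExpr and normalized by TMM in edgeR 4.0.16, which also gave the CPM. The quasi-likelihood F test was fitted to all 9 libraries with group as the only term, and p-values were adjusted by Benjamini-Hochberg over 19674 genes. Calls needed an adjusted p under 0.05, and SE is the log2 fold change divided by the square root of F. The procedure was tested on simulated counts. DESeq2 1.42.0, other normalizations and filters, a replicate block and leaving out each library were the alternatives. Intervals and errors are between libraries, and counts carry no molecular identifiers.

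Symbols, positions and merged exon lengths came from GENCODE release 44 (60463 of 60649 identifiers matched without version), promoters from RefSeq (GRCh38.p14). Promoters were listed for 7 members. Similar genes had a mean of at least 1 CPM, and log2 CPM used a prior count of 2. The members and lists were chosen with earlier results of these data known. Named genes were the members, METTL3, the 15 genes of the pathway list, up to 3 called genes per other list with the largest change in SM4 against NC, and the 3 most similar genes of 3 members. Ratios were added after the data were seen. Of the genes in the lists, 3 are not reported here. Coding rather than protein sequences were compared.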

Additional observations from a re-analysis of the deposited data

Results flagged for a closer look

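HLA-F and HLA-G differed between the libraries labelled SM4 and SM2 by the edgeR test of that difference, which is also the test of whether their changes against NC differ. HLA-F was lower in SM4 than in SM2, by -0.25 on the log2 scale (adjusted p = 0.0224), with all SM4 libraries between the NC and SM2 ranges. HLA-G was higher in SM4 than in SM2, by 0.48 (adjusted p = 0.0496), in all 3 libraries, at 2.93 to 5.42 CPM. Leaving out 1 library ended the HLA-F call in 3 of the fits and the HLA-G call in 5. The HLA-G call was also lost with upper-quartile normalization or only the 6 libraries compared. Among all tested genes, 6.04% were called higher and 6.76% lower in SM4 against SM2.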

How the results depend on the processing

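The 6 members called higher in both comparisons with NC (NLRC5, HLA-B, HLA-C, HLA-E, HLA-F and B2M) kept their direction and call under every alternative run, each left-out library included. With an adjusted p below 0.01 the genes called numbered 2775, 2646 and 1393 (SM2 with NC, SM4 with NC, SM4 with SM2), in place of 4389, 4173 and 2518. The members called in SM4 against SM2, 2 in the main analysis, were 1 with upper-quartile normalization, 1 with only the 6 libraries compared and 0 with an adjusted p below 0.01, and 0 to 2 when 1 library was left out; genes called there ranged from 1574 (without SM4 replicate 1) to 2748. The labels give the groups the same replicate numbers, but deviations of same-numbered libraries had correlations of -0.053 to 0.0453, so the numbers were not taken as pairs. With a replicate block, 7, 7 and 2 members were called as before, and 4693, 4484 and 2815 genes; at the block, and with DESeq2 (7, 7 and 2 members), no member changed its call. Values near 0 changed sign in places: TAP2 in SM4 against NC was 0.0002998 with upper-quartile normalization, and PSMB9 in SM4 against SM2, -0.0024 in the main analysis, was 0.0016 with DESeq2 size factors, 0.0014 with upper-quartile normalization, 0.0001956 with the replicate block and 0.0016 with DESeq2. STAT2 in SM2 against NC, -0.0067 in the main analysis, was 0.007189 with upper-quartile normalization. Leaving out 1 library also turned the sign of values near 0, over ranges, in SM2 against NC, of -0.2387 to 0.04169 for HLA-G, -0.00861 to 0.03212 for CALR, -0.1717 to 0.07411 for ERAP2 and -0.02943 to 0.02831 for STAT2, in SM4 against NC of -0.03629 to 0.05085 for PSMB6, and between SM4 and SM2 of -0.07113 to 0.08028 for B2M, -0.04485 to 0.07817 for TAPBP, -0.07267 to 0.02105 for CANX, -0.003312 to 0.1157 for PSMB8, -0.05498 to 0.0487 for PSMB9, -0.03861 to 0.08864 for PSME1, -0.004908 to 0.05864 for PSMB7 and -0.1159 to 0.1182 for HLA-H. Per kilobase of the canonical transcript, an alternative chosen after seeing the data, the NC levels were 1027 CPM for B2M, 377.8 for HLA-C, 195.7 for HLA-B, 81.4 for HLA-E, 26.71 for TAP1, 14.89 for TAP2, 10.8 for HLA-F, 2.867 for HLA-G and 1.185 for NLRC5, so that HLA-B and HLA-E changed places. The cause of the other changes was not tested.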
